A study of Apis mellifera with 6 samples.

Results

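Queen ovaries and active ovaries of queen-less workers were compared in 4 RNA-seq libraries of the honeybee, Apis mellifera, out of 6 in the series. The 4 libraries were taken by their sample labels, and the comparison ran across all gene entries with enough signal, 8778 of the 11169 listed. Queen ovaries (2 pools) came from females of about 12 months that headed colonies and were laying eggs. Queen-less worker ovaries (2 pools, ovary score 3, the active state) came from females kept in nucleus boxes without a queen, 2 to 4 weeks after the box was set up and once workers had laid eggs. Queen-right worker ovaries (2 pools, ovary score 0, inactive) came from females of hives with a laying queen, and they entered the fit and are shown beside the members for context. All bees came from 1 breeder's stock kept at 3 sites and carried no named allele or treatment. Each library is a pool of dissected ovaries, the number of bees per pool is not given in the sources used here, and no label says whether the pools of a group came from separate colonies, so the p-values measure the spread between these pools, which may be technical.

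A honeybee queen and a worker develop from the same kind of egg, and diet in the larva sets the caste. The queen has large ovaries of many ovarioles, the tubes in which egg chambers mature, and lays for most of her life. The worker has small ovaries that stay inactive while the queen and her brood pheromones are present, and some workers activate them once the queen is lost. An active ovary holds the germline (oocytes and nurse cells), the follicle cells around it, and a sheath with muscle, tracheae, fat body and haemocytes attached. The comparison of queen with queen-less worker ovaries asks what still separates 2 ovaries that are both making eggs.

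Levels are given in RPKM, which divides reads by gene model length and by the library's mapped reads, so they can be compared between genes. Fold changes are on the scale of log2(RPKM + 1) after the authors' scaling, as queen minus queen-less worker, a scale on which genes with few RPKM show less than their true change. An entry was said to rise or fall when limma gave it a p at or under 0.05 after Benjamini-Hochberg adjustment over all 8778 entries. Absolute depth is unknown, but from the ratios of low values pool 2 of the queen-less workers, the shallowest of the 4, reached 94.7% of the depth of pool 1. Across entries on the log2 scale, which are not independent replicates and share their libraries, the queen pools correlated at r = 0.988 and the queen-less worker pools at r = 0.983. A queen pool and a queen-less worker pool correlated at 0.968 to 0.978. For 1 gene in 2 pools against 2, no exact permutation p (two-sided) can be smaller than 0.333, and each call therefore depends on how limma pools the variance of many genes.

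Pool 2 of the queen-less workers stood apart from all other libraries in genes of the bee's venom, a set put together after its values had been seen. Melt encodes melittin, the main peptide of bee venom. Melt was at 1.99 and 1.5 RPKM in queen ovaries, against 59.4 and 2938 RPKM in queen-less worker ovaries, and at 254 and 552 RPKM in queen-right worker ovaries. Pla2, the venom phospholipase A2, was listed at 0 in both queen pools, against 0 and 91.7 RPKM in queen-less worker ovaries and 9.61 and 26.0 RPKM in queen-right worker ovaries. The venom peptides showed the same division, with Apamin at 0.61 and 0 RPKM in queens against 1.18 and 88.4 RPKM in queen-less workers, and Mcdp, the mast cell degranulating peptide, at 1.01 and 0 RPKM against 0.49 and 77.9 RPKM. Queen-right workers had 0.60 and 10.7 RPKM of Apamin and 7.47 and 12.8 RPKM of Mcdp. None of these 4 passed the threshold, with adjusted p between 0.0711 and 0.399 by limma with Benjamini-Hochberg adjustment. Melt passed it once pool 2 of the queen-less workers was left out (log2 fold change −4.45, adjusted p = 0.0259 by limma), while Pla2, Apamin and Mcdp were then at 0.02, −0.76 and −0.05. What these transcripts contribute to the results below was not tested, and counts are therefore also given without this pool.

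Of the 8778 entries, 130 (1.48%) differed between queen and queen-less worker ovaries, and 123 of them (1.40% of those tested) were lower in queens. Only 7 entries (0.0797%) were higher in queens. At an unadjusted p at or under 0.05 there were 1425 entries. The median log2 fold change of all entries was −0.05, and the 123 lower entries had a median of −1.40. For scale, 6304 entries (71.8%) differed between queen and queen-right worker ovaries and 5930 (67.6%) when queen-less were set against queen-right workers, 2 comparisons that share libraries with this one. In bulk tissue, fewer cells of a type and less RNA per cell cannot be told apart, and this holds for every difference given here. The number of calls rested on every library, since it was 53 without queen pool 1, 46 without queen pool 2, 35 without queen-less worker pool 1, 60 without queen-less worker pool 2, 85 without queen-right worker pool 1 and 71 without queen-right worker pool 2. Of these calls, 50, 44, 25, 51, 78 and 67 were among the 130. Lower entries made up at least 91.5% of the calls in each of these 6 fits.

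**Figure D1:**
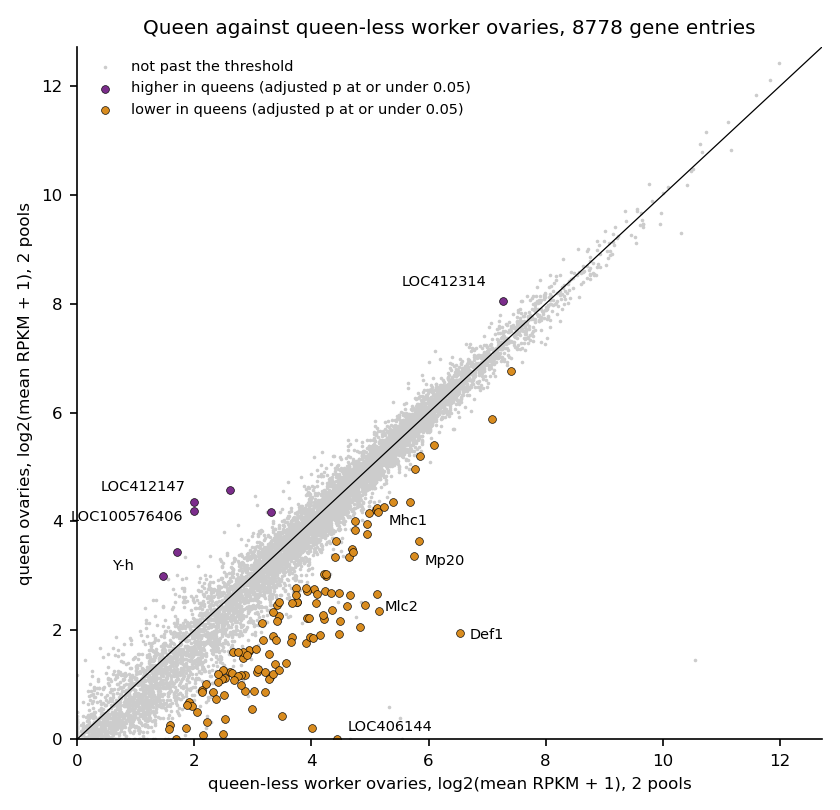
Mean level of each of the 8778 gene entries in queen-less worker ovaries (horizontal axis) and queen ovaries (vertical axis), both as log2(mean RPKM + 1) over 2 pools, with the line of equal levels. Of the coloured entries, which passed an adjusted p of 0.05, 7 lie above the line and 123 below it, and most of the 123 lie at low queen levels.

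The entries that were higher in queens were few and of moderate level. Their median was 16.2 and 20.0 RPKM in the queen pools, against 2.34 and 3.64 RPKM in the queen-less worker pools. In all 130 called entries the queen and queen-less worker pools did not overlap. A call from these same pools nearly requires this, so it is no further support. Over all entries the pools did not overlap in 20.0% for the direction higher in queens and 34.6% for the direction lower.
The only one of the 7 with a gene name was Y-h, a member of the yellow family of secreted proteins, some of which act in pigmentation of the insect cuticle. Y-h was at 6.64 and 7.36 RPKM in queen ovaries, against 1.56 and 1.99 RPKM in queen-less worker ovaries, and at 4.29 and 5.46 RPKM in queen-right worker ovaries. Both queen pools lay above all other libraries, with a log2 fold change of 1.54 (SE 0.21, adjusted p = 0.0164 by limma), a call that was lost when any 1 of the 4 queen or queen-less worker pools was left out.
The largest rise was in LOC412147, with 16.2 and 22.9 RPKM in queen ovaries, against 1.54 and 4.43 RPKM in queen-less worker ovaries, and a log2 fold change of 2.46 (SE 0.36, adjusted p = 0.0214 by limma). It kept its call in 1 of the 6 fits that left out 1 library, without queen-less worker pool 2. LOC100576406 was at 14.6 and 20.0 RPKM in queens against 2.34 and 3.64 RPKM in queen-less workers, with 2.40 and 2.36 RPKM in queen-right workers, so that it was high in queens and at a like low level in both kinds of worker. Its log2 fold change was 2.21 (SE 0.25, adjusted p = 0.00851 by limma) and it kept its call in 4 of the 6 fits that left out 1 library, more than any other of the 7.
LOC410024 and LOC409096, like LOC100577028 described last, had their highest levels in queen-right workers. Queens and queen-right workers were not called different in LOC409096 (log2 fold change, queen minus queen-right worker, −0.28, adjusted p = 0.306 by limma). The same held for LOC100577028 (−0.21, adjusted p = 0.257 by limma). LOC410024 was at 25.6 and 20.2 RPKM in queens against 6.81 and 3.37 RPKM in queen-less workers, and at 91.3 and 52.0 RPKM in queen-right workers. For LOC409096 the values were 11.9 and 7.95 RPKM in queens against 2.14 and 2.34 RPKM in queen-less workers, and 12.2 and 15.9 RPKM in queen-right workers. In LOC410024 and LOC409096 the queen-less worker ovary was thus the lowest of the 3 kinds.
LOC412314 had the highest level of the 7 and the smallest rise, 272 and 256 RPKM in queens against 166 and 141 RPKM in queen-less workers, with a log2 fold change of 0.79 (SE 0.14, adjusted p = 0.0468 by limma). It was at 14.8 and 12.0 RPKM in queen-right workers, far under both active ovaries, and it kept its call in 2 of the 6 fits without 1 library. LOC100577028 had 18.1 and 16.1 RPKM in queens against 9.78 and 8.04 RPKM in queen-less workers, and 21.2 and 25.03 RPKM in queen-right workers, and lost its call with any 1 library left out.

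**Figure D2:**
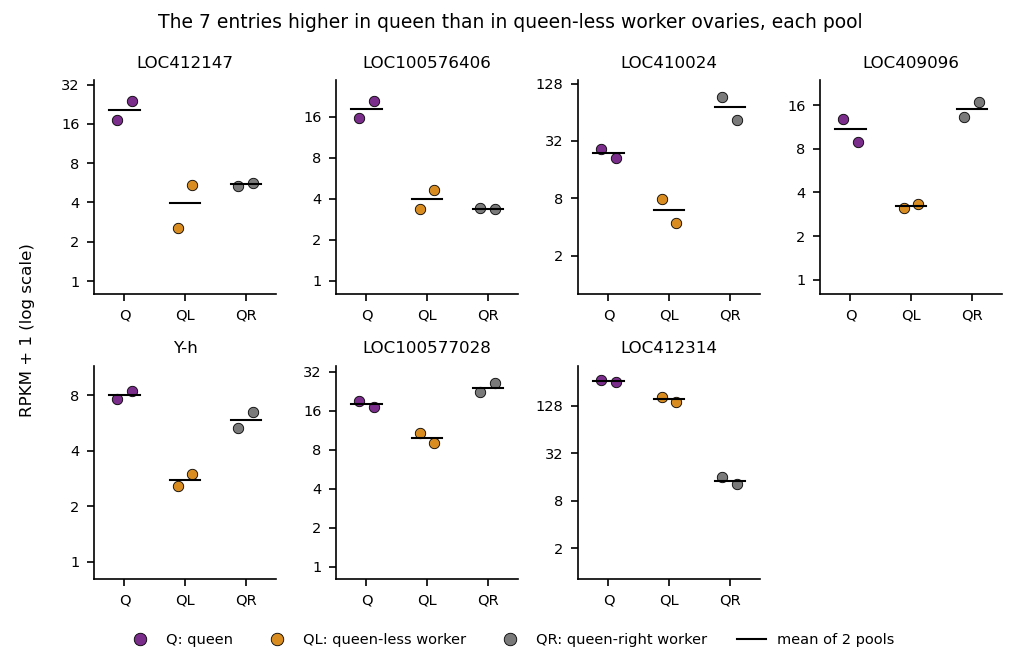
Levels of the 7 entries that were higher in queen (Q) than in queen-less worker (QL) ovaries, with queen-right workers (QR) beside them, as RPKM + 1 on a log scale. Each point is 1 pool and each bar the mean of 2 pools, and in every panel both queen points lie above both queen-less worker points.

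Among the 7, Y-h, LOC100576406 and LOC412147 are neighbours, the only run of adjacent entries higher in queens. In the assembly of the authors' table they lie on scaffold NW_003377923 from 886563 to 914685, a stretch of 28123 bp. Directly before them on the scaffold lie the major royal jelly protein genes, Mrjp1 to Mrjp9, which encode secreted proteins related to the yellow family and known from the food that nurse bees make for larvae and queens. None of the 9 Mrjp genes passed the threshold, yet all 9 had a positive log2 fold change, from 0.47 (Mrjp4) to 1.58 (Mrjp8), and 7 of 9 were above the queen-less workers in both queen pools (20.0% of all entries were). Mrjp8 was at 24.3 and 17.9 RPKM in queen ovaries, against 3.65 and 10.7 RPKM in queen-less worker ovaries. Mrjp5 was at 10.3 and 15.7 RPKM in queens against 1.84 and 7.50 RPKM in queen-less workers, and Mrjp6 at 19.7 and 31.0 RPKM against 7.49 and 14.7 RPKM. Each Mrjp gene was higher in pool 2 than in pool 1 of the queen-less workers, and the summed level of the 9 was 78.7 and 86.7 RPKM in queens, 20.7 and 50.4 RPKM in queen-less workers, and 187 and 138 RPKM in queen-right workers. The median of the 9 was 0.97, and it lay between 0.43 and 1.32 over all settings, the highest without queen-less worker pool 2, where 1 member was called. From Mrjp3 to LOC412147, over 95282 bp, all 13 tested entries had a positive log2 fold change, and those on either side, Y-e3 (−1.02, adjusted p = 0.215 by limma) and LOC724286 (−0.21, adjusted p = 0.612), did not. This stretch was singled out after its values had been seen. Mrjp genes are close paralogs, and the counting could have split reads between them.

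**Figure D3:**
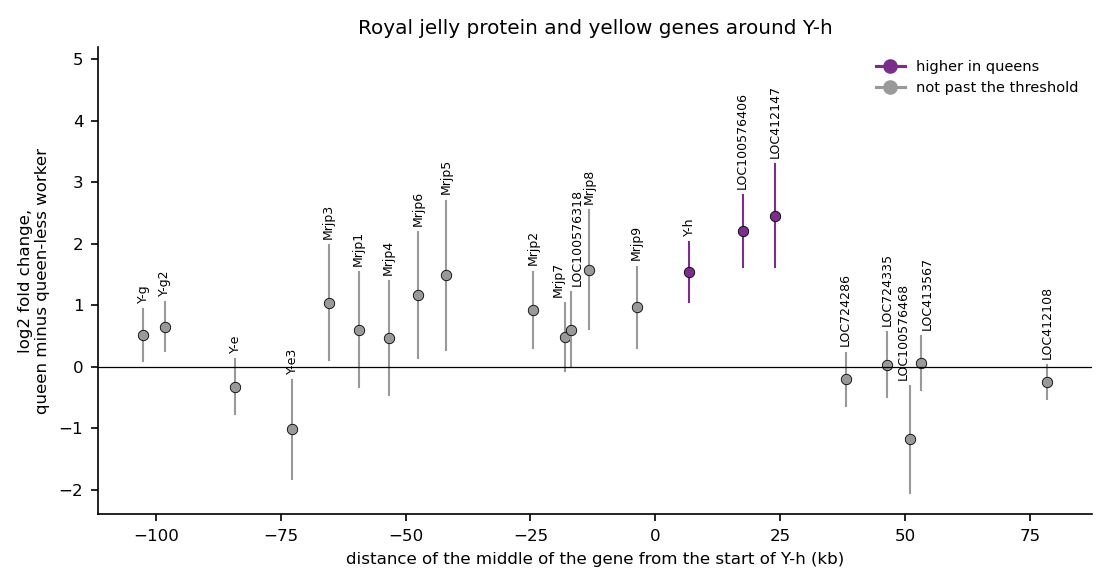
Log2 fold change of queen minus queen-less worker ovaries for the tested entries around Y-h, against the distance of the middle of each gene from the start of Y-h in kb. Points are estimates and lines 95% confidence intervals from limma. The 9 Mrjp genes lie above 0 without passing the threshold, and Y-h, LOC100576406 and LOC412147, which passed it, follow directly after them.

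Entries that were lower in queens were mostly genes that queen-right workers express at a still higher level. The 123 had a median of 3.22 and 2.17 RPKM in the queen pools, 11.4 and 10.3 RPKM in the queen-less worker pools and 72.1 and 76.3 RPKM in the queen-right worker pools. By mean RPKM, before the authors' scaling, queen-right workers lay above queen-less workers in 112 of 123 (91.1%). The share was 72.4% over all tested entries with a log2 fold change below 0. The queen-right libraries entered the fit and its variance trend. The call of an entry is therefore not independent of its queen-right level, and these shares are not a test. The fall was to a mean under 1 RPKM in queens for 25 of the 123, and 2 were listed at 0 in both queen pools. On the log2 scale 107 fell by at least 1 and 30 by at least 2. A gene name is given for 37 of the 123, and the other 86 carry only a LOC number, so the following groups cover a minority of them.

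Def1 had the largest fall. It encodes defensin 1, an antimicrobial peptide secreted by fat body and glands. Def1 was at 3.83 and 1.93 RPKM in queen ovaries, against 97.7 and 85.1 RPKM in queen-less worker ovaries, and at 376 and 328 RPKM in queen-right worker ovaries. Its log2 fold change was −4.61 (SE 0.23, adjusted p = 0.000361 by limma), and it passed the threshold in each of the 22 other settings. LOC406144 was next, listed at 0 in both queen pools against 17.9 and 23.6 RPKM in queen-less workers and 181 and 230 RPKM in queen-right workers, so that no fold can be given.
Of 68 tested genes on the list of haemocyte and innate immunity genes, 5 fell (1.40% of all entries did), none rose (0.0797% of all) and 63 did not pass, with a list median of −0.28 beside −0.05 for all entries. SP10, a serine protease gene, was at 5.0 and 5.89 RPKM in queens against 20.7 and 17.4 RPKM in queen-less workers, with more than 1000 RPKM in both queen-right pools. Its log2 fold change was −1.63 (SE 0.15, adjusted p = 0.00352 by limma). TEP7, a thioester-containing protein of the complement-like family, was at 6.33 and 5.24 RPKM in queens against 15.6 and 15.2 RPKM in queen-less workers. SP16, another serine protease, had 5.49 and 5.12 RPKM against 14.3 and 10.3 RPKM, and the protease homolog SPH42 had 31.7 and 29.1 RPKM against 59.2 and 48.1 RPKM. In all 5 the queen pools lay below the queen-less worker pools without overlap, as did 37 of the 68 tested, against 34.6% of all entries. With 1 library left out TEP7 kept its call in 2 of 6 fits, SPH42 in 1 and SP16 in 0. The list had 2 lower genes without queen pool 1, without queen pool 2 and without queen-less worker pool 2, and 3 without queen-less worker pool 1 or queen-right worker pool 2.
Not every antimicrobial gene was called with Def1. Apid1, which encodes an apidaecin, was at 5.26 and 4.18 RPKM in queens against 7.46 and 34.4 RPKM in queen-less workers. It lay in the same direction as Def1 (log2 fold change −1.595) but was not called (adjusted p = 0.242 by limma). Its queen-less worker pools lay far apart, with the high level in the same pool as the venom genes. B-gluc2 and SCR-B1 were the members with the largest positive values, 1.16 and 0.94, neither past the threshold.

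Of 14 tested muscle genes 7 were lower in queen ovaries (1.40% of all entries were) and none higher, with a median of −0.98 beside −0.05 for all entries. The members summed to 178 and 152 RPKM in queens, 346 and 313 RPKM in queen-less workers and 3102 and 3798 RPKM in queen-right workers. These sums include Mlc-c, a light chain of non-muscle myosin, which made up most of the level in queens. Mlc-c was at 91.2 and 95.1 RPKM in queens, 97.2 and 88.8 RPKM in queen-less workers and 145 and 163 RPKM in queen-right workers.
The troponins are the calcium switch of the thin filament. TpnT, troponin T, was at 6.4 and 1.8 RPKM in queen ovaries, against 37.95 and 31.0 RPKM in queen-less worker ovaries, with a log2 fold change of −2.95 (SE 0.38, adjusted p = 0.0147 by limma). TpnT kept its call in 18 of the 22 other settings, but not with only the 4 queen and queen-less worker libraries. Its log2 fold change lay between −3.65 and −2.15 over these settings. TpnI, troponin I, was at 4.37 and 1.95 RPKM in queens against 32.9 and 22.0 RPKM in queen-less workers, a log2 fold change of −2.80 (SE 0.28). TpnCI, a troponin C, fell by 1.42 on the log2 scale. Both queen pools lay well below both queen-less worker pools in these 3 genes.
Mlc2, a myosin light chain, had 5.87 and 4.76 RPKM in queens against 35.1 and 32.1 RPKM in queen-less workers, the smallest standard error among the muscle genes that fell (log2 fold change −2.45, SE 0.13, adjusted p = 0.000444 by limma). Mp20, muscle protein 20, had 10.9 and 7.68 RPKM in queens against 57.3 and 48.1 RPKM in queen-less workers. Mlc2 and Mp20 passed the threshold in each of the 22 other settings. Mf, which encodes myofilin of the thick filament, was at 2.16 and 2.17 RPKM against 7.54 and 7.05 RPKM, and Mhc1, a myosin heavy chain, at 20.1 and 13.8 RPKM against 33.5 and 34.6 RPKM, a call kept in 1 of the 6 fits without 1 library.
The troponin C genes did not move together. TpnCIIa was at 25.3 and 17.98 RPKM in queens against 18.8 and 25.8 RPKM in queen-less workers (log2 fold change −0.03, 95% confidence interval −0.60 to 0.53), and Mlc-c, the light chain of non-muscle myosin, was at 91.2 and 95.1 RPKM against 97.2 and 88.8 RPKM (interval −0.22 to 0.24). Between 5 and 7 muscle genes were called with any 1 library left out other than queen-less worker pool 1, without which there were 3.

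**Figure D4:**
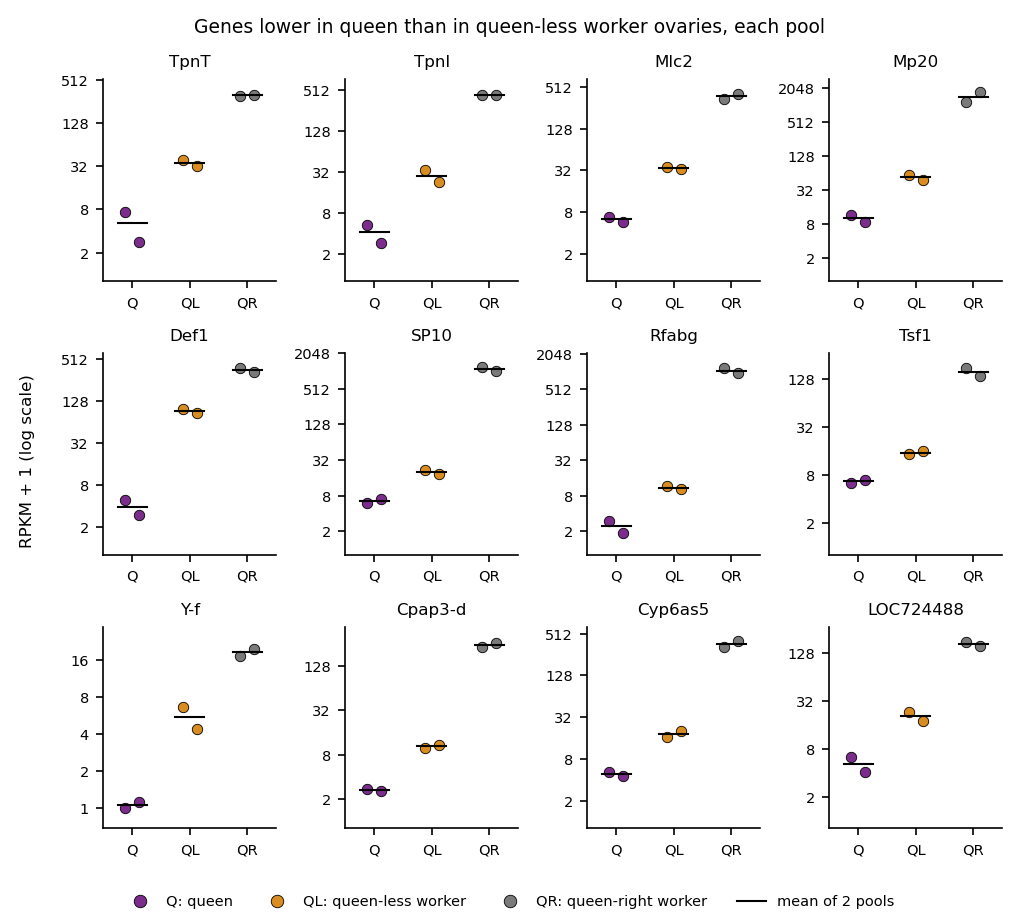
Levels of 12 genes that were lower in queen (Q) than in queen-less worker (QL) ovaries, with queen-right workers (QR) beside them, as RPKM + 1 on a log scale. Each point is 1 pool and each bar the mean of 2 pools, and in all 12 panels the levels step up through Q, QL and QR without overlap.

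Fat body and haemolymph genes divided. Rfabg, the apolipophorin that carries lipid in the haemolymph, was at 1.97 and 0.85 RPKM in queen ovaries, against 10.5 and 9.22 RPKM in queen-less worker ovaries and 1160 and 947 RPKM in queen-right worker ovaries, a log2 fold change of −2.20 (SE 0.23, adjusted p = 0.00614 by limma). Tsf1, transferrin, had 5.39 and 5.83 RPKM in queens against 13.6 and 14.8 RPKM in queen-less workers. Obp14, an odorant-binding protein gene also on the odorant-binding list, had 3.27 and 1.65 RPKM against 10.2 and 12.9 RPKM. These 3 of 20 tested were called lower and none higher (1.40% and 0.0797% of all entries), while the list's median was positive at 0.33 (the 9 Mrjp genes are among its 20 members). The count of lower genes was 1 without queen pool 2 or queen-less worker pool 2 and 0 without queen-less worker pool 1. There was also 1 higher gene without queen-less worker pool 2. The median turned to −0.19 without queen pool 1 and −0.12 without queen-less worker pool 1.
Vg, vitellogenin, the yolk precursor made in the fat body, was uneven within both groups. It was at 17.6 and 1.84 RPKM in queen ovaries, against 1.59 and 8.24 RPKM in queen-less worker ovaries, and at 118 and 78.2 RPKM in queen-right worker ovaries. The pools of the 2 groups overlap, and the 95% confidence interval of its log2 fold change was −1.48 to 2.63. Hex110, a hexamerin storage protein of the haemolymph, did not pass the threshold either, with 0.80 and 0.68 RPKM in queens against 3.72 and 9.29 RPKM in queen-less workers (adjusted p = 0.0711 by limma).

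Genes of cuticle, epidermis and tracheae had calls in both directions, 3 lower and 1 higher (Y-h) of 32 tested, against 1.40% and 0.0797% of all entries. There were 2 lower and 0 higher without queen pool 1 or either queen-less worker pool, and 3 lower and 0 higher without queen pool 2. Y-f, another yellow gene, was at 0 and 0.13 RPKM in queen ovaries, against 5.75 and 3.43 RPKM in queen-less worker ovaries (log2 fold change −2.36, SE 0.25, adjusted p = 0.00627 by limma). Cpap3-d, a chitin-binding cuticular protein, had 1.69 and 1.53 RPKM in queens against 8.79 and 9.97 RPKM in queen-less workers and over 200 RPKM in queen-right workers. Serp, the chitin deacetylase serpentine of the tracheal wall in Drosophila, had 1.02 and 1.23 RPKM against 5.28 and 5.47 RPKM. Y-f and Cpap3-d passed in each of the 22 other settings, whereas serp was lost without queen pool 1 and without either queen-less worker pool. The yellow genes Y-f and Y-h were thus called in opposite directions. Y-g and Y-g2, the yellow genes with the highest levels in these ovaries, were at 289 and 278 RPKM and at 161 and 144 RPKM in queens, against 248 and 160 RPKM and 117 and 80.9 RPKM in queen-less workers, and did not pass (adjusted p = 0.235 and 0.141 by limma).
Of the further named entries that fell, none of them on a list, Cda4, a chitin deacetylase, was at 4.94 and 4.4 RPKM in queens against 20.5 and 11.1 RPKM in queen-less workers. Ndg, nidogen of the basement membrane, pot, the papillote protein that ties epidermis to cuticle in Drosophila, and if, the integrin alpha chain inflated of Drosophila, fell by 1.33, 1.15 and 1.00 on the log2 scale. With 1 library left out, pot kept its call in 2 of 6 fits, Cda4 in 1, and Ndg and if in 0.

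Genes for small carriers and for detoxification held further falls. Among 32 tested cytochrome P450 genes, which oxidise lipids and toxins, 2 fell and none rose, where 1.40% of all entries fell. They are the neighbours CYP6AS4 and Cyp6as5. Cyp6as5 was at 4.22 and 3.50 RPKM in queen ovaries, against 15.5 and 19.2 RPKM in queen-less worker ovaries, with a log2 fold change of −1.91 (SE 0.15, adjusted p = 0.00198 by limma) and a call in each of the 22 other settings. CYP6AS4 had 4.70 and 2.52 RPKM in queens against 13.98 and 21.1 RPKM in queen-less workers. Other members of the subfamily did not pass, such as CYP6AS17, which was at 207 and 224 RPKM in queens against 169 and 194 RPKM in queen-less workers and at 10.7 and 1.64 RPKM in queen-right workers. The P450 list had 1 lower gene without queen pool 2, either queen-less worker pool or queen-right worker pool 2.
Obp3 and Obp14 fell among 27 tested odorant-binding, chemosensory and receptor genes (1.40% of all entries fell). Obp3 had 3.24 and 2.04 RPKM in queens against 19.9 and 10.7 RPKM in queen-less workers (log2 fold change −2.12, SE 0.31, adjusted p = 0.0214 by limma). Obp7 was the nearest to a call in the other direction, at 92.9 and 91.9 RPKM in queens against 56.4 and 42.3 RPKM in queen-less workers and under 1 RPKM in queen-right workers (log2 fold change 0.91, adjusted p = 0.0591 by limma). Obp3 kept its call in 1 and Obp14 in 2 of the 6 fits without 1 library, and neither did without queen pool 2, queen-less worker pool 1 or queen-right worker pool 2.
In the redox list, 2 of 27 tested fell, against 1.40% of all entries. GstS4, a sigma-class glutathione S-transferase, was at 24.1 and 14.8 RPKM in queens against 50.0 and 51.4 RPKM in queen-less workers, and Tpx-4, a thioredoxin peroxidase, at 18.1 and 18.2 RPKM against 40.9 and 32.6 RPKM. Either 1 or 0 of them kept its call when any 1 library was left out.

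Small heat shock proteins are chaperones that hold unfolding proteins. LOC724488 was at 5.35 and 3.02 RPKM in queen ovaries, against 21.9 and 16.98 RPKM in queen-less worker ovaries (log2 fold change −1.997, SE 0.23, adjusted p = 0.00878 by limma). LOC410087 had 3.19 and 4.13 RPKM in queens against 17.6 and 10.9 RPKM in queen-less workers, and LOC724449 had 8.01 and 10.4 RPKM against 24.9 and 22.9 RPKM. All 3 are among the small heat shock genes that the study examined, and they are the 3 called of 20 tested genes on the heat shock and chaperone list, against 1.40% of all entries. The other small heat shock genes of the list were not called, so the 3 do not stand for the whole cluster that the study examined. The large chaperones were not called either. Hsc70-4 was at 1919 and 1730 RPKM in queens against 2496 and 2085 RPKM in queen-less workers (log2 fold change −0.32, interval −0.77 to 0.13). Hsp90 was at 830 and 800 RPKM in queens against 991 and 1004 RPKM in queen-less workers. The count of 3 was 1 without queen pool 1 and 0 without queen-less worker pool 1. Without queen-less worker pool 2 it was 3, with LOC724449 not among them.

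Several further named entries fell in queens and stand outside the lists. TRP was at 4.81 and 5.74 RPKM in queen ovaries, against 25.5 and 23.0 RPKM in queen-less worker ovaries and 24.2 and 27.1 RPKM in queen-right worker ovaries, so that both kinds of worker had like levels. ATF-3-like had 7.05 and 6.87 RPKM in queens against 19.1 and 16.8 RPKM in queen-less workers, and like TRP passed in each of the 22 other settings. Tektin-C, a tektin, the proteins that line microtubules of cilia and flagella, had 1.03 and 1.42 RPKM in queens against 6.91 and 4.43 RPKM in queen-less workers, a call lost with any 1 library left out. Also lower were nemy (−1.70), IGFn3-13 (−1.16), t (−1.14, tan in Drosophila), galectin1 (−1.11) and CDase, a ceramidase (−0.66), and 1 of the entries named Ef-1a-f1, where reads may be split between copies. With 1 library left out nemy kept its call in 3 of 6 fits, IGFn3-13 and galectin1 in 2, the Ef-1a-f1 entry in 1, and t and CDase in 0. Among entries with only a LOC number, LOC726252, LOC409602, LOC726441 and LOC552073 were with Def1 among the 12 largest falls and passed in every other setting. LOC409602 was at 0.46 and 0.23 RPKM in queens against 10.2 and 10.4 RPKM in queen-less workers, and LOC726441 at 2.63 and 3.00 RPKM against 21.8 and 20.4 RPKM.

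Lists of germline and egg formation held no call. The 19 tested germline and oocyte genes had a median of 0.12 and lay between −0.62 and 0.45. The most abundant was tral, trailer hitch of the oocyte's RNA granules in Drosophila, at 4408 and 4492 RPKM in queen ovaries, against 3463 and 3845 RPKM in queen-less worker ovaries. Mael, the Maelstrom protein of the piRNA pathway, had the largest positive value (0.45, interval −0.20 to 1.09). NOS had the largest size of change (−0.62, adjusted p = 0.273 by limma) at under 1 RPKM in all 4 libraries. It joined the list only because its letters match nos, a short name of nanos, and it is not a germline marker here. The entry nanos itself was at 28.2 and 22.6 RPKM in queens against 25.6 and 18.6 RPKM in queen-less workers (log2 fold change 0.21). Apart from NOS the lowest value was that of vas, the germline helicase Vasa (−0.28, interval −0.65 to 0.10). Vas was at 190 and 138 RPKM in queens against 193 and 201 RPKM in queen-less workers. Summed over the list, queens had 8882 and 8818 RPKM, queen-less workers 7200 and 7807 RPKM and queen-right workers 2177 and 2101 RPKM. Most of the sum in both active ovaries came from tral and mael, so its order does not describe the other members. Mael was at 2309 and 2274 RPKM in queens, 1467 and 1950 RPKM in queen-less workers and 97.5 and 56.5 RPKM in queen-right workers. Tral was at 322 and 195 RPKM in queen-right workers. Germline markers of the labelled tissue were thus present in all 4 libraries of active ovaries.
Yl, the receptor that takes up yolk, was at 642 and 608 RPKM in queens against 586 and 548 RPKM in queen-less workers (interval −0.55 to 0.84). Neither were there calls among 9 egg shell and follicle genes, 5 meiosis genes, 19 DNA replication and cell cycle genes, 14 genes of the Notch pathway, 21 ecdysteroid and juvenile hormone genes, 10 insulin and TOR genes, 13 methylation genes, 10 apoptosis and autophagy genes, 9 amine and neuropeptide receptors or 20 nervous tissue genes. Within these lists the largest sizes of log2 fold change were in JHBP-1, a juvenile hormone binding protein gene (−1.78, adjusted p = 0.148 by limma), Pban (−1.27, adjusted p = 0.0677) and Para (−0.96, adjusted p = 0.282). In the other lists the member of largest change was NPF for insulin and TOR (0.85), Y-g2 for egg shell (0.65), Cdk4 for replication (−0.64), neur for Notch (−0.52), trx for methylation (0.39), Atg13 for apoptosis (−0.36) and SMC1 for meiosis (0.31). A miss of the threshold with 2 pools does not show that these genes were equal.

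The genes of the cytoplasmic ribosome shifted little but nearly all one way. None of the 67 tested passed the threshold, while 66 had a negative log2 fold change, as did 5036 of all 8778 entries. The median of the 67 was −0.28 and lay between −0.38 and −0.16 over all settings. These genes share their libraries and are not independent observations. In 56 of the 67 both queen pools lay below both queen-less worker pools, against 34.6% of all entries. Their summed level was 17974 and 16769 RPKM in queens, 22395 and 19110 RPKM in queen-less workers and 53095 and 61179 RPKM in queen-right workers. RpS19a had the largest size of change, with 167 and 137 RPKM in queens against 264 and 239 RPKM in queen-less workers (−0.72, adjusted p = 0.143 by limma). The 56 mitochondrial ribosomal protein genes had a median of 0.02 and 26 negative values, and mRpS16 had the largest size of change (−0.77, adjusted p = 0.102 by limma).

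**Figure D5:**
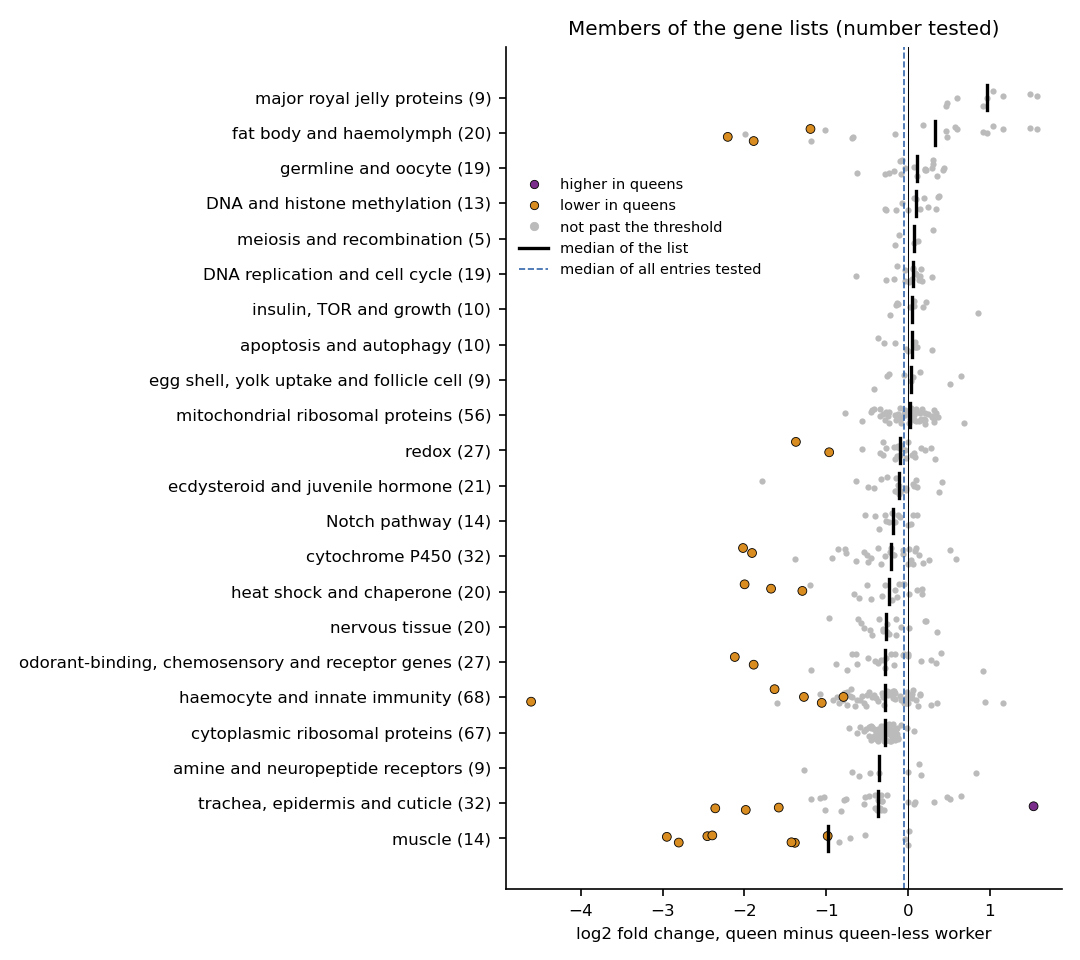
Log2 fold change of queen minus queen-less worker ovaries for each tested member of 22 gene lists, 1 list per row with the number tested. Black bars are list medians and the dashed line is the median of all 8778 entries. Muscle has the lowest median (−0.98) and the major royal jelly proteins the highest (0.97), and the cytoplasmic ribosomal proteins lie in a narrow band, 66 of 67 below 0.

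A few entries were lower in queens without being highest in queen-right workers. By mean RPKM, before the authors' scaling, there were 11 such among the 123. In 8 the queen-right mean fell between the other groups, and in 3 it was below the queen mean. On the scaled values, queen-less workers were also slightly above queen-right workers in some further entries. These were TRP (log2 fold change, queen-less minus queen-right worker, 0.11), LOC100577448 (0.11), LOC100577994 (0.05) and LOC409642 (0.02). Acph-1, the acid phosphatase of bee venom, was at 0.38 and 0.10 RPKM in queen ovaries, against 3.74 and 3.56 RPKM in queen-less worker ovaries, and at 1.68 and 0.83 RPKM in queen-right worker ovaries (log2 fold change −1.91, SE 0.27, adjusted p = 0.0213 by limma). Unlike the 4 venom genes above, it was at equal levels in both queen-less worker pools, and its call was lost without any 1 of the 4 queen and queen-less worker pools. These 11 were singled out after their values had been seen. LOC409409 had the highest level of the 3 that were lowest in queen-right workers, at 11.8 and 14.8 RPKM in queens against 26.5 and 25.1 RPKM in queen-less workers, and at 7.49 and 7.55 RPKM in queen-right workers. LOC409852 had the highest level, at 58.1 and 58.3 RPKM in queens against 145 and 124 RPKM in queen-less workers, and at 103 and 88.2 RPKM in queen-right workers. LOC552158 was listed at 0 in both queen pools, against 1.58 and 2.89 RPKM in queen-less workers.

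Called entries also lay side by side among the lower genes. There were 10 runs of at least 2 adjacent tested entries called in the same direction, holding 22 of the 130, and 9 of the runs were of lower entries. On scaffold NW_003378145, between positions 91908 and 132277, 7 of 10 tested entries were lower in queens, against 1.40% of all entries, a stretch chosen after its values had been seen and bounded by called entries. LOC725404 was the most abundant of them, at 12.8 and 10.1 RPKM in queens, 60.4 and 52.0 RPKM in queen-less workers and 1048 and 1326 RPKM in queen-right workers. LOC410075 was at 5.41 and 3.63 RPKM in queens against 30.5 and 28.2 RPKM in queen-less workers (log2 fold change −2.47, SE 0.17, adjusted p = 0.00132 by limma), and passed in each of the 22 other settings. Gnf1, within the same stretch, was at 40.7 and 41.5 RPKM in queens against 31.94 and 35 RPKM in queen-less workers. Several of these entries overlap in position, and the sources used here do not say whether the counting used strand, so their reads may be shared. Rfabg overlaps LOC100576655 in the same way. The pair LOC724449 and LOC724488, the pair CYP6AS4 and Cyp6as5 and the pair Mp20 and LOC411285 are further runs.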

How the data were processed

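RNA-seq values of 6 honeybee ovary libraries (2 pools each of queens, queen-less workers and queen-right workers) were taken from the authors' table. The authors deposited RPKM per gene entry and library, and a normalized signal that equals RPKM + 1 multiplied by 1 factor per library. These factors were recovered and kept, and lay between 0.994 and 1.010 in the 4 libraries compared and at 0.898 and 0.856 in queen-right workers. The labels' notes name no aligner, and the counting program, strand setting and genome build are not given in the sources used here. Adjusted p-values of the authors' 3 comparisons and 12 other columns of values per sample were not used. Of 11169 entries, 8962 matched the reference table of Amel_HAv3.1, used for names only, and entries that share a name or ID (157) were left out of the lists. No sequence is shown.

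Since the values are RPKM and not counts, limma (version 3.58.1, R 4.3.3) was run on log2 of RPKM + 1 (a pseudocount of 1) times the factor, with all 6 libraries, 1 mean per group, a variance trend, a filter of at least 1 RPKM in at least 2 libraries and Benjamini-Hochberg adjustment at 0.05. The fit was tested on simulated data. It recovered 56 of 100 genes given a log2 change of 1 and 91 of 100 given a change of 2, with 10 false calls among 157. The simulated spread followed the variance model that the fit assumes, so a failure of that model could not show. Confidence intervals are at 95%. Relative depth came from the commonest ratio of low RPKM values (Python 3.11.15, pandas 2.3.3, numpy 2.4.6).

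Genes named are the 12 largest falls and, of up to 12, the 7 rises among calls without overlap, every call with a gene name, called list members and, for lists without calls, the member of largest change. Other members named without passing were picked after their values were seen. The comparison, its members and the lists were chosen with earlier results of these data known, and no list was tested as a set. Pool numbers were tried as a block but do not pair the libraries (r = 0.06 between the deviations of queen and queen-less worker pools). Alternatives concerned the filter, scaling, gene length, pseudocount, libraries, variance model, block, threshold and each library left out. Applying them to list medians was added after seeing the data.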

Additional observations from a re-analysis of the deposited data

How the results depend on the processing

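Between queen and queen-less worker ovaries 130 entries passed the threshold. The count was 82 with quantile normalization, 68 with a pseudocount of 5, 42 with only the 4 queen and queen-less worker libraries, 41 at an adjusted p of 0.01 and 273 at 0.1. Among these, 77, 66, 41, 41 and 130 were also among the 130. Each of the 6 fits without 1 library gave 35 to 85. Pool number as a replicate block gave 72 with all 6 libraries and 333 with only 4, of which 226 were lower, and since same-numbered pools did not deviate together this is not a paired result. The block with 4 libraries also called 11 cytoplasmic ribosomal protein genes lower. The cause of these shifts was not tested. The other 12 settings gave 100 to 147, with 90.2% to 95.9% of calls lower over all scalings, filters and pseudocounts, and the median of all entries moved from −0.06 to 0.02 over scalings. None of the 53 named genes changed direction in any of 22 settings. All 53 had been called with pools that do not overlap, so a change of direction could hardly occur. Of the 53, 15 kept their call in all settings (Def1, LOC406144, LOC726252, LOC409602, LOC726441, LOC410075, Mlc2, LOC552073, Mp20, Y-f, TRP, Cpap3-d, Cyp6as5, SP10 and ATF-3-like). In all, 897 of 1165 values kept their call and 268 lost it. Some list medians changed sign in some settings, most of them near 0, such as that of ecdysteroid and juvenile hormone genes under 2 scalings. Of those further from 0, the median of amine and neuropeptide receptors (−0.35) changed sign under 3 filters and lay between −0.67 and 0.13. That of fat body and haemolymph genes (0.33) lay between −0.19 and 0.54. The medians of muscle, germline, cytoplasmic ribosomal and royal jelly genes kept their sign. Without read counts, no limit for values listed at 0 can be given.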

Other observations

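Some of the widest differences in the 4 libraries lay between pools of the same group and not between groups. Between the 2 queen pools 135 of 8778 entries differed by at least 1 on the log2(RPKM + 1) scale, and between the 2 queen-less worker pools 141. Beside the venom genes, LOC724436 was at 0 and 0 RPKM in queen ovaries, against 0.63 and 48.1 RPKM in queen-less worker ovaries. Within queens LOC550937 was at 11.2 and 0.20 RPKM and LOC551937 at 0.34 and 11.4 RPKM, while the queen-less worker pools had 18.02 and 8.05 RPKM of LOC550937 and 7.63 and 5.96 RPKM of LOC551937. These genes were picked for their spread after their values had been seen, and none passed the threshold.

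LOC726487 had the highest queen level of all entries, 5398 and 5569 RPKM in queens against 4252 and 3857 RPKM in queen-less workers, with 266 and 128 RPKM in queen-right workers (log2 fold change 0.44, adjusted p = 0.54 by limma). LOC100578025 was at 2542 and 2657 RPKM in queens against 2498 and 1915 RPKM in queen-less workers, and at 8.49 and 2.26 RPKM in queen-right workers. Neither passed the threshold, which does not show that they were equal.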
